A study of Mus musculus with 8 samples.

Results

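The 26S proteasome is the protease that degrades proteins tagged with ubiquitin. Its core is a barrel of stacked rings: the alpha subunits, encoded by Psma genes, form the gate, and the beta subunits, encoded by Psmb genes, enclose the cutting sites. A cap sits on the core. The base of the cap holds a ring of ATPases, encoded by Psmc genes, that unfold substrates and feed them into the core, and the lid, encoded by Psmd genes, removes ubiquitin before entry. Proteasomes work in axons, in Schwann cells and in the other cells of a nerve, and misfolded SOD1 is among their known substrates.

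The genes described here are those named Psma, Psmb, Psmc or Psmd with a number, leaving out the immunoproteasome genes Psmb8, Psmb9 and Psmb10. They number 36 of the 34821 gene names that had a probe on the array, with 44 of 55681 probes. Of the 36, 16 belong to the core and 20 to the cap. Each gene was read from its probe with the brightest nerve signal over all 8 arrays. The files' accession of each measured gene's probe matched the same symbol in the RefSeq gene table, for 34 of 34. Psma8, an alpha subunit of the testis, and Psmb11, a beta subunit of the thymus cortex, were well above background on 0 of 8 arrays in either dye and were not tested. The other 34 genes, 14 of the core and 20 of the cap, were well above background in both dyes on all 8 arrays. The names Psmd5, Psmd9 and Psmd10 stand for chaperones that assemble the base and are not subunits of the finished complex. They are kept in the cap counts and also given on their own.

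The tested nerves came from 4 male SOD1G93A transgenic mice aged 60 days, and the controls from 4 male wild-type mice of the same age, which the submitters' design text calls non transgenic. SOD1G93A mice carry a mutant human SOD1 gene and are a model of amyotrophic lateral sclerosis. By the series title, mice of this age are presymptomatic. The strain background and the number of transgene copies are not given in the sources used here. Whole sciatic nerve RNA was labelled with Cy3 and hybridised to Agilent 2-colour arrays. The same pool of RNA from neonatal heart, liver and kidney, of both genotypes together, was labelled with Cy5 on every array. No dye was swapped. The submitters describe the samples of a group as biological replicates. All values below are log2 ratios of nerve over this reference, positive where nerve was the brighter of the pair, and a genotype difference is the SOD1G93A mean minus the wild-type mean. Values of single arrays are listed for replicates 1 to 4.

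The 8 arrays shared 1 slide, on which each genotype had a position number of its own, so position and genotype cannot be told apart. Between 35.5% and 38.6% of spots were well above background in Cy3 on SOD1G93A arrays and between 35.6% and 41.7% on wild-type arrays, and 0 spots were saturated. Mouse Sod1 had log2 ratios of -0.17, 0.03, -0.01 and -0.01 in SOD1G93A nerves, against 0.35, 0.23, 0.04 and -0.11 in wild-type nerves. The groups overlapped (difference -0.17 ± 0.11, SE; limma adjusted p = 0.593). Binding of the human transcript to this mouse probe was not examined, so the genotype labels are not checked by it. All 10 of 10 myelinating Schwann cell markers were measured, with a mean log2 ratio of 4.02 to 4.60 on SOD1G93A arrays and 3.84 to 4.30 on wild-type arrays. Other tissues differed between arrays. The 7 measured of 10 skeletal muscle markers averaged -1.43 to -1.16 on SOD1G93A arrays, against 2.84 and 1.96 on wild-type replicates 1 and 2 and -1.16 and -0.91 on wild-type replicates 3 and 4. The 9 measured of 10 adipocyte markers averaged 1.52 to 2.98 on SOD1G93A arrays and 2.57 to 4.09 on wild-type arrays. For 8 of 8 smooth muscle and pericyte markers the averages were -0.99 to -0.59 on SOD1G93A arrays and -0.68 to 0.76 on wild-type arrays, and for 8 of 8 endothelial markers -1.20 to -0.85 on SOD1G93A arrays and -0.71 to -0.30 on wild-type arrays. The 9 measured of 10 listed macrophage marker names averaged 0.24 to 1.40 on SOD1G93A arrays and 0.12 to 0.50 on wild-type arrays, the lowest SOD1G93A value being that of replicate 1. The name not measured, Adgre1, is a newer name of Emr1, which was measured. Fibroblast markers, 6 of 6, averaged 1.99 to 2.58 on SOD1G93A arrays and 2.12 to 2.52 on wild-type arrays. The 2 measured of 6 T cell markers and the 5 measured of 6 red blood cell markers overlapped between groups. The part of other tissues in the proteasome values was not tested. In whole nerve, fewer cells of a type and less RNA per cell cannot be told apart.

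One array stood apart in the proteasome genes. On SOD1G93A replicate 1 the median log2 ratio of the 34 genes was -0.49, against 0.01, -0.06 and -0.01 on SOD1G93A replicates 2 to 4 and -0.15, -0.10, -0.07 and -0.15 on the wild-type arrays. Relative to the mean of the other SOD1G93A arrays, the median gene was lower by 0.43 on the log2 scale on that array, where the median of all 15341 measured genes was lower by 0.04. Of the 34 genes, 27 were lower there, as were 8389 of all 15341 genes. Of the 34, 14, or 41.2%, lay below -0.51. That cutoff is the 10th percentile of all genes, so 1534 of the 15341 lie below it by definition. The SD of this departure was 0.43 over the 34 genes and 0.40 over all measured genes. Taken the same way, the SD over all measured genes was 0.21 to 0.24 on SOD1G93A replicates 2 to 4 and 0.21 to 0.32 on wild-type arrays. Genes outside the proteasome thus also spread more widely on SOD1G93A replicate 1. The plot of every gene on every array shows SOD1G93A replicate 1 as open diamonds.

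**Figure D1:**
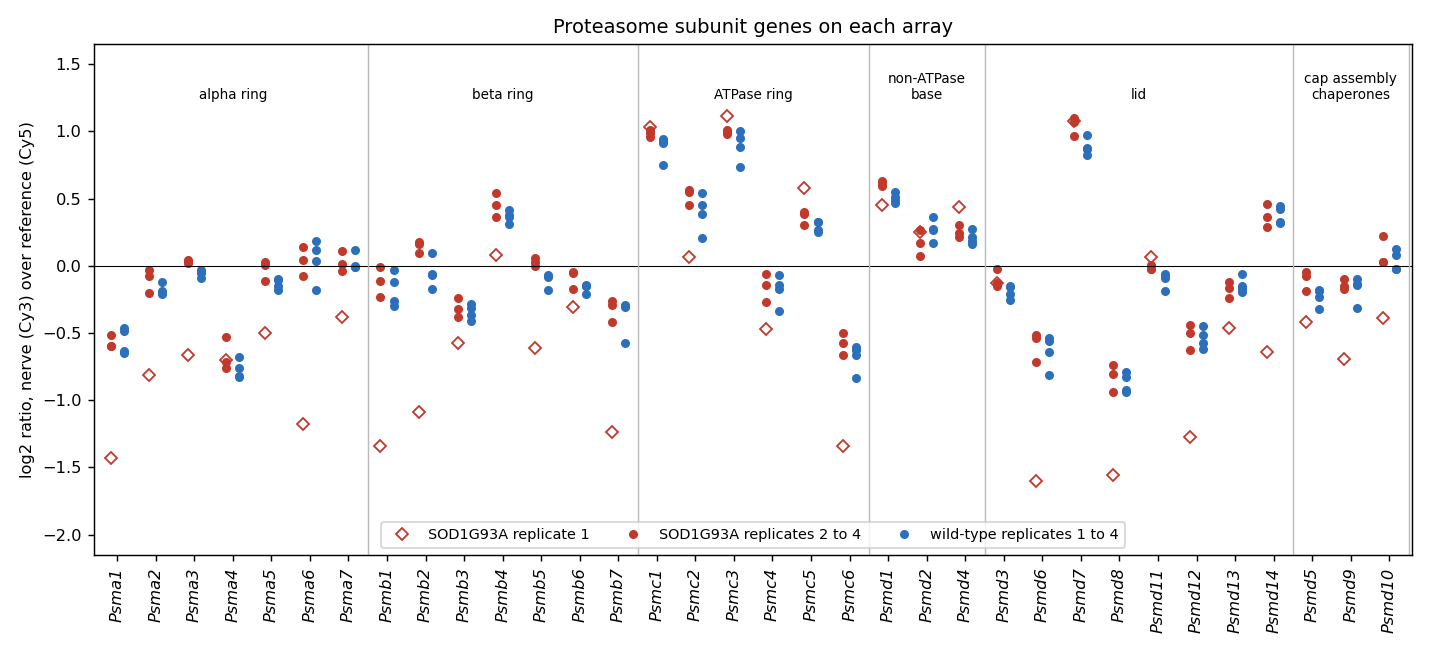
Log2 ratio of nerve (Cy3) over the neonatal reference pool (Cy5) for each of 34 proteasome genes (x axis, by place in the complex), with 1 point per array. SOD1G93A replicate 1 (open diamonds) lies far below the other arrays for core genes such as Psma1 (-1.43) and Psmb7 (-1.24) and beside them for Psmc1 (1.03) and Psmd7 (1.08).

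The departure of SOD1G93A replicate 1 was uneven across the complex. All 14 core genes were lower there, by a median of 0.66, with medians of -0.69 for the alpha ring and -0.64 for the beta ring. Of the 20 cap genes, 13 were lower and 7 higher, with a median of -0.30. The lid (-0.51) and the assembly chaperones (-0.48) departed most, the ATPase ring less (-0.13), and the 3 other base genes Psmd1, Psmd2 and Psmd4 had a median departure of 0.08. Psmb2 (-1.23), Psmb1 (-1.22) and Psma6 (-1.21) departed most, and Psmc5 (0.21), Psmd4 (0.18) and Psmc3 (0.12) lay above the other SOD1G93A arrays. For Psmc3 this held by its brighter probe only, the other probe having a departure of -0.17. These differences between rings were not tested, since they rest on 1 array.

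In the median gene, the departure lay mainly in the nerve channel. For this view each dye was quantile normalized between arrays, so that all arrays shared the same distribution of intensities. In Cy3 the median gene was then lower by 0.35 than on the other SOD1G93A arrays, and in Cy5, which carried the same reference RNA on every array, by 0.03. The bars of the 2 dyes show the same for the genes that departed most, such as Psmb2 (-1.23 in Cy3 and 0.07 in Cy5). This did not hold for some genes with small departures. Psmc5 had 0.10 in Cy3 and -0.14 in Cy5, Psmc3 had -0.02 and -0.05, and Psma4, lower by its ratio, had 0.07 and 0.04. Before normalization, SOD1G93A replicate 1 also had the lowest median Cy3 intensity over measured probes, 377.9. The other SOD1G93A arrays had 572.0 to 613.2 and the wild-type arrays 536.0 to 735.5. Its macrophage marker mean was 0.24, where the other SOD1G93A arrays had 1.01 to 1.40, and its Schwann cell marker mean was 4.60, where they had 4.02 to 4.05. The part of these in the departure was not tested. The main genotype differences below are therefore followed by their values without this array.

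**Figure D2:**
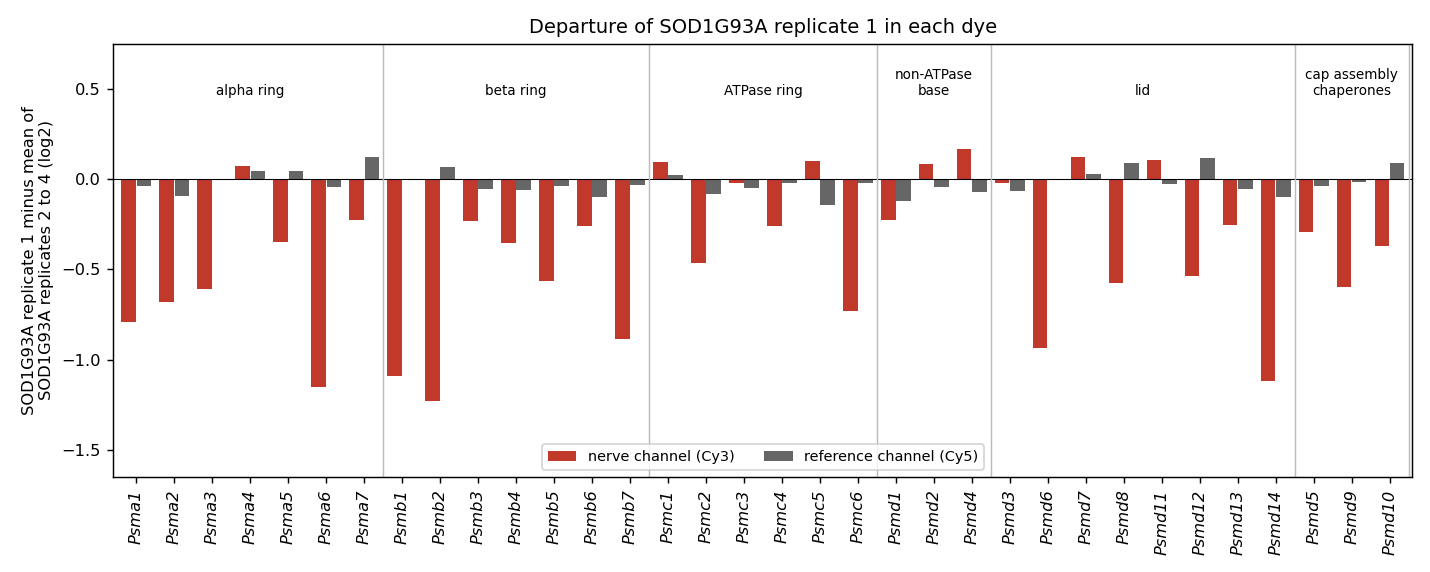
SOD1G93A replicate 1 minus the mean of SOD1G93A replicates 2 to 4 for 34 proteasome genes, on the log2 scale, in the nerve channel (Cy3) and in the reference channel (Cy5). Each dye was quantile normalized between arrays. Nerve bars reach -1.23 (Psmb2), while reference bars stay between -0.14 and 0.13.

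No proteasome gene was called between genotypes. Of the 34 genes, 0 passed the limma test at a Benjamini-Hochberg adjusted p under 0.05, where 0.163% of all 15341 genes did, 25 in number. At an unadjusted p under 0.05 there was 1, Psmd7, where 11.4% of all genes passed. The median difference was -0.06 over the 34 genes, with 12 higher and 22 lower in SOD1G93A nerves, and -0.02 over all genes. It was -0.09 for the core, with 2 of 14 higher, and -0.02 for the cap, with 10 of 20 higher, a cap median so near 0 that it also turned to 0.03 in the Cy3 channel alone, to 0.0068 with the mean of all probes of a gene and to 0.02 without wild-type replicate 3. The cap without its assembly chaperones had a median of 0.01, with 9 of 17 higher. Without SOD1G93A replicate 1 the signs of the medians over the 34 genes, the core and the whole cap turned. The median was then 0.07 over the 34 genes, with 29 higher and 5 lower, 0.08 for the core and 0.06 for the cap, while all genes had -0.01. Again 0 of 34 were called, where 1.17% of all genes were, and the smallest adjusted p was that of Psmb2 (limma, 0.269). Array weights and the 6 arrays numbered 2 to 4 gave the same signs as leaving that array out, with core medians of 0.04 and 0.07. The count of 29 has no test here, since the genes were measured on the same arrays.

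**Figure D3:**
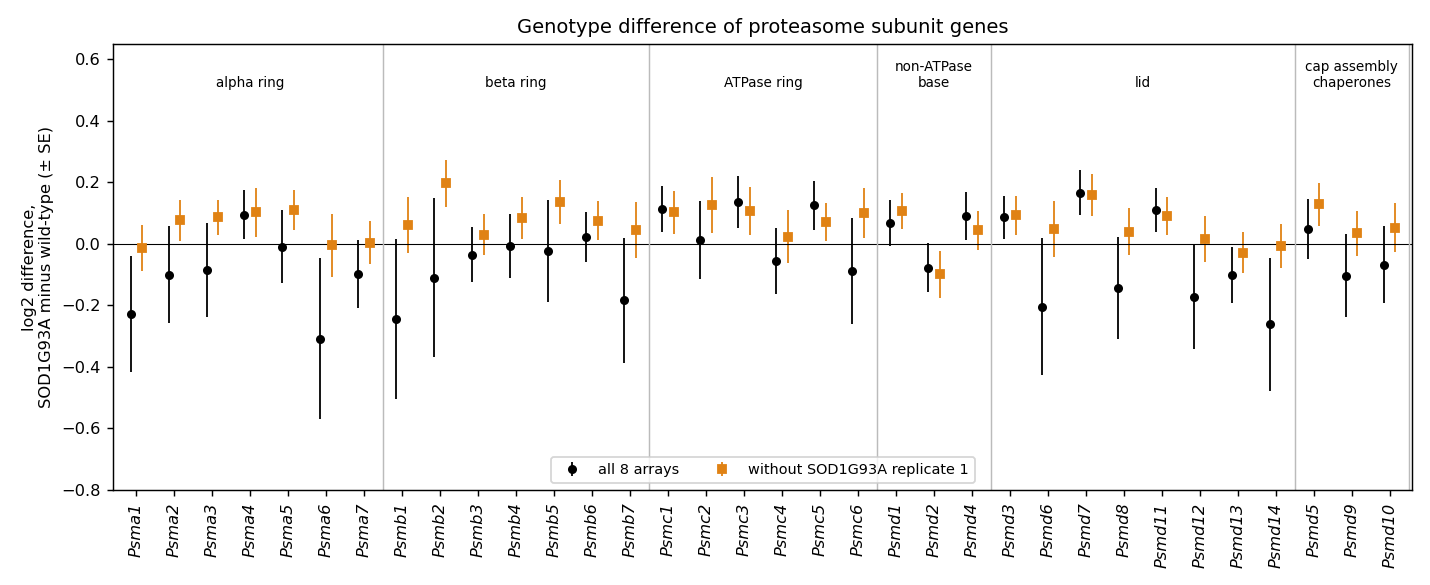
Genotype difference (SOD1G93A minus wild-type, log2, ± SE from limma) of 34 proteasome genes with all 8 arrays (black circles) and without SOD1G93A replicate 1 (orange squares). The 14 core genes have a median of -0.09 with that array and 0.08 without it, and 0 genes are called in either fit.

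Among the alpha subunits, which gate the core, 6 of 7 were lower in SOD1G93A nerves and 0 were called. Psma6 had log2 ratios of -1.18, 0.14, -0.08 and 0.04 in SOD1G93A nerves, against 0.12, 0.19, 0.03 and -0.18 in wild-type nerves. Its low mean came from replicate 1, and the other SOD1G93A values lay within the wild-type range. The difference was -0.31 ± 0.26 (SE, limma adjusted p = 0.681), and -0.01 ± 0.10 without that array. Psma1 had ratios of -1.43, -0.52, -0.60 and -0.60 in SOD1G93A nerves, against -0.46, -0.65, -0.48 and -0.63 in wild-type nerves. Replicate 1 again stood below 7 arrays that overlapped (difference -0.23 ± 0.19, SE, limma adjusted p = 0.673, and -0.01 ± 0.07 without it). The other 5 alpha subunits differed by -0.10 to 0.10 with all arrays and by 0.0037 to 0.11 without replicate 1.

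Psma4 was the 1 alpha subunit gene that was higher in SOD1G93A nerves with all arrays, and it was measured by a pair of probes that disagreed on replicate 1. Both are shown because they read different stretches of the same transcript. Each joins stretches of the Psma4 transcript across an intron, on the plus strand of build mm9: the brighter one at chr9:54804685-54805444 and the other, nearer the start of the transcript, at chr9:54802741-54804087.
Psma4 brighter probe: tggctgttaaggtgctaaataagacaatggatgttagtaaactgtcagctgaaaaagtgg
Psma4 other probe: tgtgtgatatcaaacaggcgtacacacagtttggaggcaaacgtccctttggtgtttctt
The brighter probe gave -0.70, -0.53, -0.76 and -0.72 in SOD1G93A nerves, against -0.76, -0.68, -0.82 and -0.82 in wild-type nerves. The other probe gave -1.49, -0.68, -0.75 and -0.69 in SOD1G93A nerves, against -0.67, -0.71, -0.81 and -0.88 in wild-type nerves. On 7 arrays the probes ran side by side, and on SOD1G93A replicate 1 only the other probe was low. The genotype difference was 0.10 ± 0.08 by the brighter probe and -0.14 ± 0.18 by the other (SE), so the direction for Psma4 is not settled.

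The beta subunits hold the catalytic sites: Psmb5 cuts after hydrophobic, Psmb6 after acidic and Psmb7 after basic residues. With all arrays 1 of 7 beta subunits was higher in SOD1G93A nerves, and without replicate 1 all 7 were, with 0 called either way. Psmb5 had log2 ratios of -0.61, 0.02, -0.0011 and 0.06 in SOD1G93A nerves, against -0.18, -0.08 and -0.07 in wild-type replicates 1 to 3. The spot of wild-type replicate 4 was marked as an outlier by the scanner software and left out of the fit. Replicates 2 to 4 of SOD1G93A lay above the 3 wild-type values and replicate 1 far below them, so the difference was -0.02 ± 0.17 (SE, limma adjusted p = 0.971), and 0.14 ± 0.07 without replicate 1 (limma adjusted p = 0.392). Psmb6 had ratios of -0.30, -0.05, -0.17 and -0.05 in SOD1G93A nerves, against -0.21, -0.15, -0.15 and -0.15 in wild-type nerves. The groups overlapped (difference 0.02 ± 0.08, SE, limma adjusted p = 0.936, and 0.08 ± 0.06 without replicate 1). Psmb7 had ratios of -1.24, -0.26, -0.42 and -0.29 in SOD1G93A nerves, against -0.31, -0.30, -0.29 and -0.57 in wild-type nerves. Replicate 1 stood lowest and wild-type replicate 4 next (difference -0.18 ± 0.20, SE, limma adjusted p = 0.755, and 0.04 ± 0.09 without replicate 1). Psmb2, a structural subunit, had the smallest adjusted p without replicate 1. Its ratios were 0.10, 0.18 and 0.16 in SOD1G93A replicates 2 to 4 and -1.08 in replicate 1, against -0.17, 0.09, -0.06 and -0.07 in wild-type nerves. The difference was -0.11 ± 0.26 with all arrays and 0.20 ± 0.08 without replicate 1 (SE, limma adjusted p = 0.893 and 0.269).

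The 6 ATPases of the base form a ring of 1 copy each. With all arrays 4 of 6 were higher in SOD1G93A nerves, without replicate 1 all 6 were, and 0 were called. Psmc1 had log2 ratios of 1.03, 0.99, 0.95 and 1.01 in SOD1G93A nerves, against 0.75, 0.91, 0.94 and 0.93 in wild-type nerves. All 4 SOD1G93A values lay above all 4 wild-type values, by a small margin (difference 0.11 ± 0.07, SE, limma adjusted p = 0.594, and 0.10 ± 0.07 without replicate 1). By its other, dimmer probe the groups overlapped, with 0.52, 0.64, 0.60 and 0.69 in SOD1G93A nerves, against 0.46, 0.52, 0.59 and 0.53 in wild-type nerves. Psmc3 had 1.12, 1.01, 0.98 and 1.01 in SOD1G93A nerves, against 0.73, 0.89, 1.00 and 0.95 in wild-type nerves. The groups overlapped at their edge (difference 0.14 ± 0.08, SE, limma adjusted p = 0.567, and 0.11 ± 0.08 without replicate 1). Psmc5 had 0.57, 0.38, 0.30 and 0.40 in SOD1G93A nerves, against 0.25, 0.32, 0.26 and 0.32 in wild-type nerves. Here replicate 1 was the highest array (difference 0.12 ± 0.08, SE, limma adjusted p = 0.583, and 0.07 ± 0.06 without replicate 1).

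The other ATPases followed the core on that array. Psmc2 had log2 ratios of 0.07, 0.55, 0.45 and 0.56 in SOD1G93A nerves, against 0.20, 0.38, 0.54 and 0.45 in wild-type nerves. Psmc4 had -0.47, -0.15, -0.27 and -0.06 in SOD1G93A nerves, against -0.14, -0.17, -0.07 and -0.34 in wild-type nerves. Psmc6 had -1.34, -0.50, -0.67 and -0.58 in SOD1G93A nerves, against -0.60, -0.83, -0.63 and -0.66 in wild-type nerves. In each of these 3 genes replicate 1 was the lowest of 8 arrays and the other values overlapped. Their differences were 0.01 ± 0.13, -0.06 ± 0.11 and -0.09 ± 0.17 (SE, limma adjusted p = 0.980, 0.866 and 0.870), and 0.13 ± 0.09, 0.02 ± 0.09 and 0.10 ± 0.08 without replicate 1.

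The non-ATPase base genes encode the scaffold subunits Psmd1 and Psmd2 and the ubiquitin receptor Psmd4. Psmd4 had log2 ratios of 0.44, 0.31, 0.22 and 0.24 in SOD1G93A nerves, against 0.19, 0.27, 0.22 and 0.16 in wild-type nerves. Replicate 1 was the highest array and the groups overlapped (difference 0.09 ± 0.08, SE, limma adjusted p = 0.686, and 0.04 ± 0.06 without replicate 1). Psmd1 and Psmd2 differed by 0.07 ± 0.07 and -0.08 ± 0.08 (SE). Without replicate 1 Psmd1 was at 0.11 ± 0.06, and Psmd2 was the 1 base subunit below wild-type, at -0.10 ± 0.08.

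The lid carries Psmd14, the deubiquitinase that strips ubiquitin from substrates, and its partner Psmd7. Psmd7 had the smallest p of all 34 genes. Its log2 ratios were 1.08, 1.07, 0.96 and 1.097 in SOD1G93A nerves, against 0.82, 0.87, 0.87 and 0.98 in wild-type nerves. The ranges met, with the lowest SOD1G93A value just under the highest wild-type value (difference 0.17 ± 0.07, SE, limma adjusted p = 0.438, and 0.16 ± 0.07 without replicate 1). Psmd14 had ratios of -0.64, 0.46, 0.29 and 0.37 in SOD1G93A nerves, against 0.32, 0.44, 0.42 and 0.32 in wild-type nerves. Its difference of -0.26 ± 0.22 (SE, limma adjusted p = 0.674) rested on replicate 1, and was -0.01 ± 0.07 without it.

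The remaining lid genes encode scaffold subunits. Psmd11 had log2 ratios of 0.07, 0.01, -0.02 and -0.02 in SOD1G93A nerves, against -0.09, -0.06, -0.07 and -0.19 in wild-type nerves, without overlap (difference 0.11 ± 0.07, SE, limma adjusted p = 0.580, and 0.09 ± 0.06 without replicate 1). With Psmd3 and Psmc1 (the latter by its brighter probe only), it was 1 of 3 proteasome genes of 34 whose SOD1G93A arrays all lay above all wild-type arrays, where 3.67% of all genes did. Psmd3 was separated only just, its lowest SOD1G93A value being -0.149 and its highest wild-type value -0.154. Its difference was 0.09 ± 0.07 (SE, limma adjusted p = 0.672), and 0.09 ± 0.06 without replicate 1. In the other direction there were 0 of the 34, where 4.33% of all genes lay all below. Psmd13 had -0.46, -0.16, -0.24 and -0.12 in SOD1G93A nerves, against -0.06, -0.20, -0.15 and -0.17 in wild-type nerves (difference -0.10 ± 0.09, SE, limma adjusted p = 0.697, and -0.03 ± 0.07 without replicate 1). Psmd6 and Psmd8 had their lowest values of all arrays on replicate 1, -1.60 and -1.56, and differed by 0.05 ± 0.09 and 0.04 ± 0.08 without it. Of the chaperones of base assembly, Psmd5, Psmd9 and Psmd10 differed by 0.05 ± 0.10, -0.10 ± 0.13 and -0.07 ± 0.13 (SE), and without replicate 1 by 0.13 ± 0.07, 0.03 ± 0.07 and 0.05 ± 0.08, with 0 called.

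Psmd12, a lid scaffold gene, showed the reverse of Psma4: there the brighter probe was low on replicate 1 and the other was not. The brighter probe lies within 1 stretch of the mm9 genome at chr11:107358963-107359022, and the other, nearer the start of the transcript, crosses an intron at chr11:107347092-107347728, both on the plus strand.
Psmd12 brighter probe: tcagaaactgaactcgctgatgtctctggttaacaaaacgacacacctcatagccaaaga
Psmd12 other probe: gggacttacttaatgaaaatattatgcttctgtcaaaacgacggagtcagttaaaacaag
The brighter probe gave -1.27, -0.50, -0.44 and -0.62 in SOD1G93A nerves, against -0.45, -0.51, -0.57 and -0.62 in wild-type nerves. The other probe gave -0.22, -0.26, -0.14 and -0.31 in SOD1G93A nerves, against -0.13, -0.27, -0.06 and -0.04 in wild-type nerves. Replicate 1 lay within the SOD1G93A range by the other probe and far below it by the brighter. The genotype difference was -0.17 ± 0.17 by the brighter probe (SE, limma adjusted p = 0.723, and 0.02 ± 0.07 without replicate 1) and -0.11 ± 0.08 by the other.

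In all, 8 of the 34 genes had 2 measured probes. Psmb5, Psmc2, Psmd9 and Psmd10 were low on SOD1G93A replicate 1 by both probes, with departures of -0.64 and -0.52, -0.46 and -0.44, -0.55 and -0.58, and -0.48 and -0.40, the brighter probe first. For Psmc1 the departures were 0.04 and -0.13 and for Psmc3 0.12 and -0.17. So 4 of the 8 genes were low there by both probes and Psma4 and Psmd12 by 1 of their 2. Psmc1 and Psmc3 departed by less, upward by the brighter probe and downward by the other. By that other probe replicate 1 was the lowest SOD1G93A array for each. The sign of the genotype difference was the same by both probes for Psmc1, Psmc3, Psmd9 and Psmd12, and opposite for Psma4, Psmb5, Psmc2 and Psmd10.

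**Figure D4:**
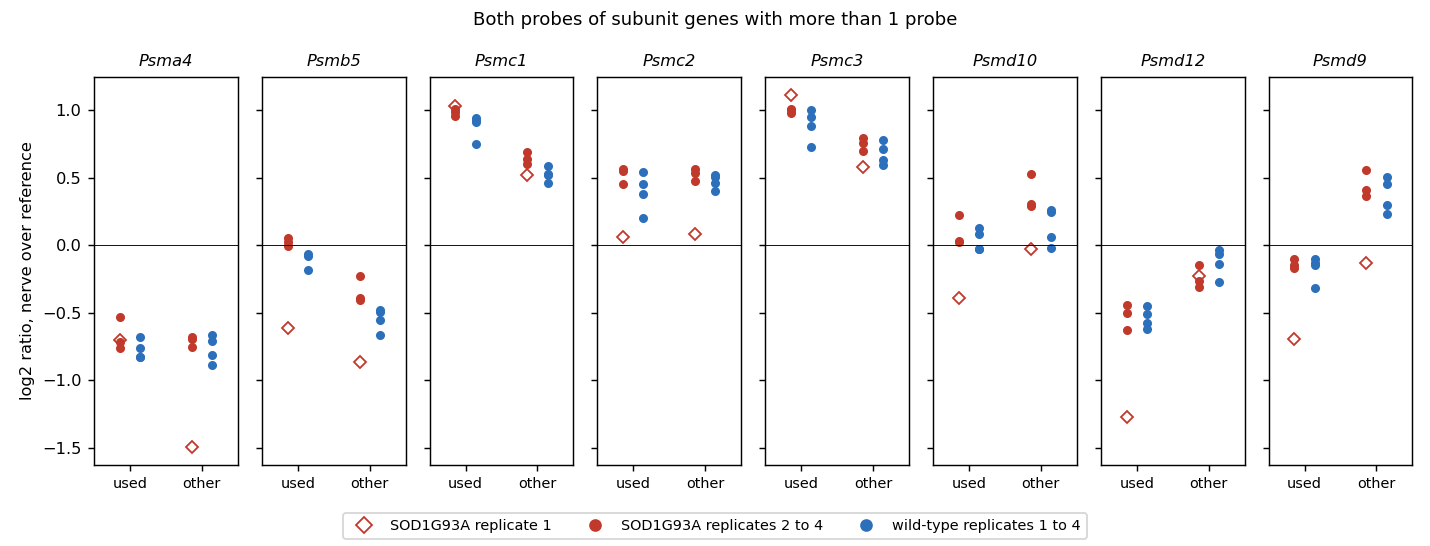
Log2 ratio of nerve over reference by both probes of the 8 proteasome genes with 2 measured probes, the brighter (used) at the left of each panel, with 1 point per array. SOD1G93A replicate 1 (open diamonds) lies low by the other probe of Psma4 (-1.49) and by the used probe of Psmd12 (-1.27), and low by both for Psmb5, Psmc2, Psmd9 and Psmd10.

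A further pair of probes shows genes that departed in opposite directions on replicate 1. Psmc5, at chr11:106124192-106124376, lay above the other SOD1G93A arrays there, and the deubiquitinase gene Psmd14, at chr2:61599058-61599117, was lower by 1.01 (mm9, plus strand).
Psmc5 probe: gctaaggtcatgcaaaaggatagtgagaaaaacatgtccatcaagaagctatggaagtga
Psmd14 probe: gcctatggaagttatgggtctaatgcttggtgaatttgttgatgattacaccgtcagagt

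Against the neonatal pool, the proteasome genes of nerve ranged from -0.94 for Psmd8 to 0.97 for Psmd7, both of the lid. The ratio carries the dye, since nerve was always Cy3, and 84.3% of all genes were called in this comparison (46.2% higher and 38.1% lower in nerve), so a call alone sets no gene apart. The same pool was on every array, so the SEs and p-values of this comparison leave out the spread of the reference. Of the 34 genes, 9 were higher in nerve, 15 were lower and 10 were not called (limma, adjusted p under 0.05). The core had 1 higher and 6 lower, with a median log2 ratio of -0.15 that moved to -0.40 with median centring, and the cap 8 higher and 9 lower, with a median of -0.02 that turned to 0.04 with median centring and to 0.08 with the mean of all probes of a gene. The cap without its assembly chaperones had 8 higher and 7 lower, with a median of 0.23. The median of all genes was 0.07. Without SOD1G93A replicate 1 the counts were 10 higher and 17 lower, where 47.3% of all genes were higher and 38.8% lower, with medians of -0.10 for the core and 0.0042 for the cap.

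Within the cap, the base and the lid had medians of opposite sign. The ATPase ring had a median of 0.38, with 4 higher and 2 lower in nerve, and the other base genes 0.25, with 3 of 3 higher. The lid had -0.17, with 1 higher and 5 lower, and the assembly chaperones -0.21. The alpha ring had -0.14 with 3 lower and the beta ring -0.15 with 1 higher and 3 lower. On each of the 8 arrays the median of the ATPase ring exceeded that of the beta ring, by 0.93, 0.48, 0.55 and 0.53 on SOD1G93A arrays and by 0.44, 0.51, 0.47 and 0.52 on wild-type arrays. No test of rings against each other was made, and single genes ranged from -0.73 to 0.96 in the ATPase ring and from -0.94 to 0.97 in the lid.

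**Figure D5:**
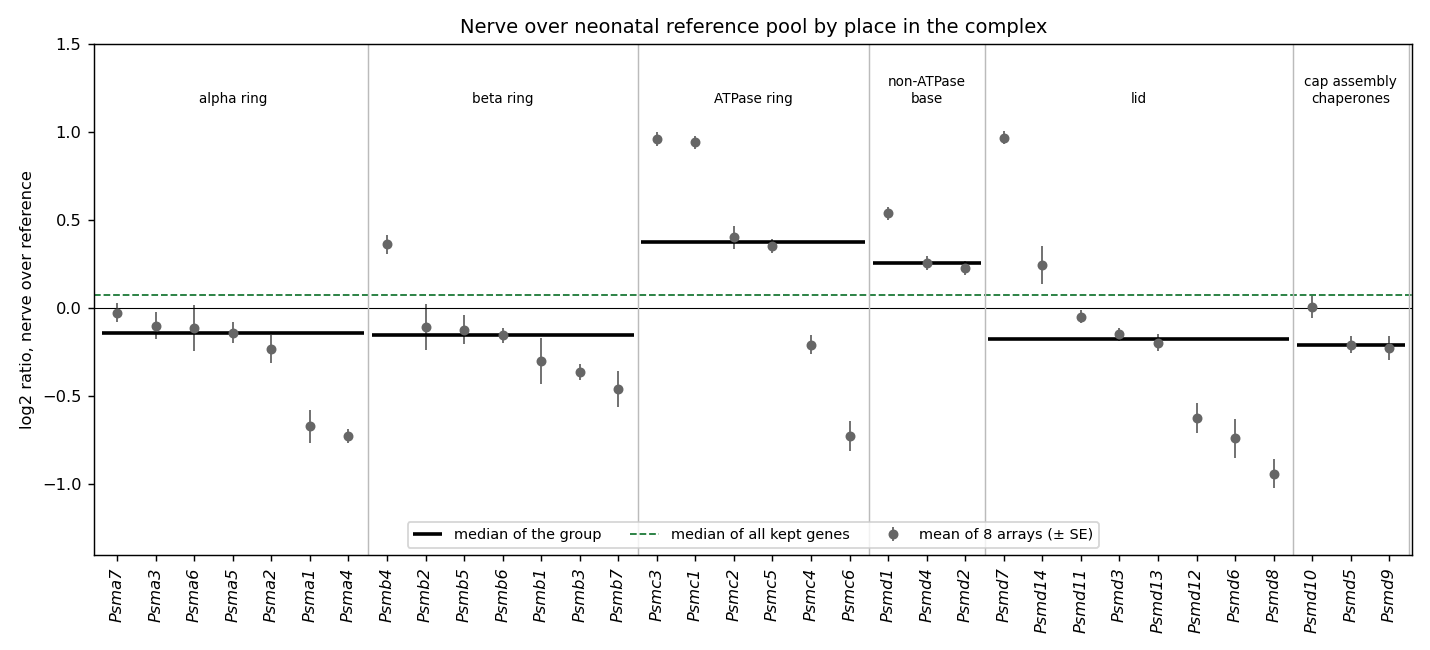
Log2 ratio of nerve over the neonatal reference pool for 34 proteasome genes, ordered within each part of the complex (points, mean of 8 arrays ± SE from limma). Black bars are the medians of each part, 0.38 for the ATPase ring and -0.15 for the beta ring, and the dashed line is the median of all genes, 0.07.

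The highest ratios were those of Psmd7 (0.97 ± 0.04), Psmc3 (0.96 ± 0.04), Psmc1 (0.94 ± 0.04) and the scaffold gene Psmd1 (0.54 ± 0.04, all SE, limma adjusted p = 4.8e-09, 1.2e-08, 6.7e-09 and 3.7e-07). Psmd1 had 0.45, 0.62, 0.60 and 0.63 in SOD1G93A nerves, against 0.47, 0.49, 0.51 and 0.55 in wild-type nerves, above 0 on all 8 arrays. The lowest were the lid genes Psmd8 (-0.94 ± 0.08) and Psmd6 (-0.74 ± 0.11), the ATPase gene Psmc6 (-0.73 ± 0.09) and Psma4 (-0.72 ± 0.04, all SE, limma adjusted p = 2.7e-06, 0.000145, 2.5e-05 and 8.0e-08). Psmd8 had -1.56, -0.80, -0.94 and -0.74 in SOD1G93A nerves, against -0.79, -0.94, -0.82 and -0.92 in wild-type nerves. Psmd6 had -1.60, -0.51, -0.72 and -0.53 in SOD1G93A nerves, against -0.53, -0.64, -0.56 and -0.81 in wild-type nerves. Both were below 0 on all 8 arrays, with replicate 1 lowest. Without replicate 1 these 4 lowest ratios were -0.85, -0.61, -0.63 and -0.72.

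The catalytic subunits lay lower in nerve or were not called. Psmb7 had -0.46 ± 0.10 (SE, limma adjusted p = 0.00196) and Psmb6 -0.15 ± 0.04 (SE, limma adjusted p = 0.00558), and Psmb5 at -0.12 ± 0.08 was not called (limma adjusted p = 0.199). The call of Psmb6 was lost with Agilent's processed signals (-0.04), where Psmb5 gave 0.03. Psmb4, a structural beta subunit, was the 1 core gene that was higher in nerve, at 0.36 ± 0.05 (SE, limma adjusted p = 0.000105). Psmd14 at 0.25 ± 0.11 missed the threshold (SE, limma adjusted p = 0.0558), and was called at 0.37 without replicate 1 (limma adjusted p = 1.3e-05). Psmc2 (0.40 ± 0.06), Psmc5 (0.35 ± 0.04) and Psmd4 (0.25 ± 0.04) were higher in nerve and Psmc4 (-0.21 ± 0.05) lower (SE, limma). With the mean of all probes of a gene, Psmb5 was called lower, at -0.35 (limma adjusted p = 0.00174). With each array centred on its median in place of the loess fit, Psmc2, Psmd4 and Psmc4 lost their calls, at 0.26, 0.05 and -0.21, Psmb5 was called lower, at -0.40 (limma adjusted p = 0.0318), and 5 proteasome genes in place of 9 were higher.

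By probe, the ratio to the reference differed within a gene as well. Psmd9 gave -0.23 ± 0.07 by the brighter probe and 0.34 ± 0.07 by the other, and Psmd12 -0.62 ± 0.08 and -0.18 ± 0.04 (SE). Psmb5 gave -0.12 ± 0.08 and -0.51 ± 0.07. Among the genes with the highest ratios, Psmc1 gave 0.94 ± 0.04 and 0.57 ± 0.04 and Psmc3 gave 0.96 ± 0.04 and 0.69 ± 0.04, so the size of their ratios depends on the probe.

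The other genes of the pathway comprised 49 listed names, of which 43 were measured. The list holds both an older and a newer name of some genes, such as Shfm1 and Sem1. Of these 0 were called between genotypes, where 0.163% of all genes were, with 21 higher and 22 lower in SOD1G93A nerves and a median of -0.02. Without SOD1G93A replicate 1 again 0 were called, with 26 higher and 17 lower. At an unadjusted p under 0.05 there were 5 of 43, a share near the 11.4% of all genes, and 10 of 43 without replicate 1, where 16.1% of all genes passed. The 5 are given as values. Maff, a small Maf protein that pairs with the transcription factors Nfe2l1 and Nfe2l2, had log2 ratios of -1.68, -1.44, -1.35 and -1.05 in SOD1G93A nerves, against -2.20, -1.64, -2.14 and -1.93 in wild-type nerves. The groups overlapped by 1 array (difference 0.60 ± 0.16, SE, limma adjusted p = 0.206, and 0.70 ± 0.15 without replicate 1), and Maff was well above background in Cy3 on 4 of 4 SOD1G93A and 3 of 4 wild-type arrays. Ubqln1, a shuttle that brings ubiquitinated proteins to the proteasome, had 0.39, 0.41, 0.37 and 0.33 in SOD1G93A nerves, against 0.21, 0.13, 0.18 and 0.12 in wild-type nerves. The groups did not overlap (difference 0.22 ± 0.07, SE, limma adjusted p = 0.284, and 0.21 ± 0.06 without replicate 1).

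In the other direction, Zfand5, a zinc finger protein that binds the cap, had -0.83, -0.55, -0.53 and -0.55 in SOD1G93A nerves, against -0.31, -0.53, -0.29 and -0.22 in wild-type nerves (difference -0.28 ± 0.10, SE, limma adjusted p = 0.348, and -0.21 ± 0.08 without replicate 1). The highest SOD1G93A value and the lowest wild-type value were nearly the same. Txnl1, a thioredoxin-like protein bound to the cap, had 0.50, -0.04, 0.07 and -0.03 in SOD1G93A nerves, against 0.45, 0.30, 0.40 and 0.57 in wild-type nerves. Replicate 1 alone lay among the wild-type arrays (difference -0.31 ± 0.13, SE, limma adjusted p = 0.413, and -0.43 with an adjusted p of 0.0504 without replicate 1). With array weights Maff (0.68, limma adjusted p = 0.0336) and Txnl1 (-0.40, limma adjusted p = 0.0352) passed the threshold. That fit called 418 of all genes, against 25 in the main fit. The fifth gene was Psmg4, a core assembly chaperone, which was named after its value was seen (0.22 ± 0.07, SE, limma adjusted p = 0.285, and 0.21 ± 0.06 without replicate 1). Of the 43 genes, 4 had all SOD1G93A arrays above all wild-type arrays (Ubqln1, Psmg4, Pomp and Adrm1), where 3.67% of all genes did. The ubiquitin gene Ubb was the 1 that lay all below, where 4.33% of all genes did. Its difference was -0.32 ± 0.15 (SE, limma adjusted p = 0.452), and -0.16 ± 0.07 without replicate 1.

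By list, 0 genes were called between genotypes in any, with or without replicate 1. The 5 core assembly chaperones had 3 higher, and 5 without replicate 1, and Pomp, which matures the core, gave 0.13 ± 0.07 (SE, limma adjusted p = 0.526, and 0.17 ± 0.06 without replicate 1). The 6 genes that act on transcription of subunit genes had 6 higher in both fits, with a median of 0.10, and Nfe2l1, the factor that induces subunit genes when proteasomes are inhibited, gave 0.10 ± 0.08 (SE, limma adjusted p = 0.665, and 0.09 ± 0.08 without replicate 1). Of 9 measured cap-bound proteins 4 were higher, and 5 without replicate 1, with the ubiquitin receptor Adrm1 at 0.16 ± 0.08 and the deubiquitinase Usp14 at -0.10 ± 0.08 (SE, limma adjusted p = 0.477 and 0.661, and 0.14 ± 0.07 and -0.06 ± 0.07 without replicate 1). Of 9 measured shuttle and segregase genes 3 were higher, of 6 genes of ubiquitin and its activation 3, and of 5 activator and inhibitor genes 1. Without replicate 1 these counts were 3, 4 and 2.

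The immunoproteasome subunits, which replace the catalytic beta subunits in immune cells, were higher in nerve than in the reference. Psmb8, Psmb9 and Psmb10, the counterparts of Psmb5, Psmb6 and Psmb7, had log2 ratios of 1.66 ± 0.10, 1.11 ± 0.10 and 0.59 ± 0.05 (SE) in nerve, and 3 of 3 were called higher (limma). Their genotype differences were -0.07 ± 0.19, -0.37 ± 0.19 and 0.05 ± 0.10 (SE, limma adjusted p = 0.911, 0.509 and 0.883), and -0.01 ± 0.21, -0.33 ± 0.21 and 0.0063 ± 0.10 without replicate 1. Psmb9 had 0.81, 0.91, 1.18 and 0.80 in SOD1G93A nerves, against 1.90, 0.97, 1.14 and 1.16 in wild-type nerves. Wild-type replicate 1, 1 of the pair of arrays with high skeletal muscle markers, was the highest array for all 3 genes. Wild-type replicate 2, the other of that pair, had 1.59 for Psmb8, 0.97 for Psmb9 and 0.50 for Psmb10. Wild-type replicates 3 and 4 had 1.54 and 1.41 for Psmb8, 1.14 and 1.16 for Psmb9, and 0.47 and 0.50 for Psmb10. The part of muscle in these values was not tested.

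Since Nfe2l1 and Nfe2l2 bind DNA together with a small Maf protein, promoters were searched for their element, TGACNNNGC on either strand, and for CCAAT on either strand, the box bound by NF-Y. RefSeq promoters on build GRCm38.p6 ran from 250 bases before to 50 after the start. They were at hand for 29 of the 36 genes and 27025 symbols in all. Only the 250 bases before the start were searched, and a symbol was counted once if any of its promoters held the motif. TGACNNNGC was present in 5 of the 29, which were Psmb5, Psmb6, Psmc6, Psmd9 and Psmd12, or 17.2%, where 11.52% of all symbols had it. CCAAT was present in 12 of the 29, or 41.4%, where 37.5% of all symbols had it. No TGACNNNGC match overlapped a CCAAT match, since 0 of the 29 genes held both motifs in the searched bases. The windows around 3 of the 5 TGACNNNGC matches are printed with the motif in capitals, since Psmb5 and Psmb6 are catalytic and Psmd12 departed by 1 probe. The windows lie at chr14:54617996-54618082 (minus strand), chr11:70525308-70525356 (plus strand) and chr11:107479278-107479329 (plus strand, motif on the opposite strand).
Psmb5 promoter window: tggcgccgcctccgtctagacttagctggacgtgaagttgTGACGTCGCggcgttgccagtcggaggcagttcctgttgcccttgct
Psmb6 promoter window: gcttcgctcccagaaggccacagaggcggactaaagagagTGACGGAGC
Psmd12 promoter window: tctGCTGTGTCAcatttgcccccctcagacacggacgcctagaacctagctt
The match ended 39 bases before the start in Psmb5, 1 base before it in Psmb6 and 239 bases before it in Psmd12. A match is a run of letters in these windows, and binding was not measured.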

How the data were processed

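The authors deposited 1 scanner file per array, with the linear intensity of each spot in Cy3 and Cy5, its local background, and flags and probe names that carry no scale. Per the file headers these came from version 11.5.1.1 of Agilent Feature Extraction, while the submitters' processing notes list version 11.0.1.1 and limma. Their deposited table of log10 values (Cy5 over Cy3) equals the log ratio in the scanner files, with a largest difference of 0, and was used with its sign turned as an alternative.

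From the mean intensity and median local background of each spot, log2 ratios of Cy3 over Cy5 were computed by normexp (offset 50) and loess within arrays, with control spots at weight 0 and outlier spots left out. A filter kept the 19836 probes that were well above background in Cy3 on 4 or more of the 8 arrays, and the brightest probe of each gene name gave 15341 genes. Fits used limma 3.58.1 (lmFit, eBayes) in R 4.3.3 with the data.table package, version 1.17.8, 2-sided, with Benjamini-Hochberg adjustment over all genes and a threshold of 0.05. For genes with 2 probes, SEs of each come from a fit of all kept probes. The procedure was tested on simulated data. The genes named are the 5 per direction with the smallest genotype p, the 4 highest and 4 lowest ratios to the reference, the catalytic subunits, Psmd14, Psmd4, the 6 ATPases, chosen pathway genes and the 2 per direction of those with the smallest p. Psmb2, Psmb4, Psmg4, Ubb and other subunits with single values were added after their values were seen. The proteasome genes, lists and tests were chosen with earlier results of these data known. Gene names come from the array design, and probe positions are on mm9. Alternatives changed the background correction, normalization, filter, probe rule, channel, array weights, replicate block and arrays used. The number of arrays limits the precision, and p-values measure the spread between these samples. For nerve over reference they leave out the spread of the pool.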

Additional observations from a re-analysis of the deposited data

Results flagged for a closer look

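Among 71 groups of 4 arrays looked at (named genes and the median of the proteasome genes, in each genotype), 11 held 1 array far from the other 3 by Dixon's criterion. Chance flags about 1 in 20 groups, and the genes share their arrays. SOD1G93A replicate 1 accounted for 7. They were the low log2 ratios of nerve over reference of Psma1 (-1.43), Psma6 (-1.18), Psmb5 (-0.61), Psmb7 (-1.24), Psmd14 (-0.64) and Zfand5 (-0.83), and the median of the proteasome genes (-0.49). Wild-type replicate 1 was far from the other wild-type arrays for Psmc1 (0.75, low), Psmb6 (-0.21, low) and the immunoproteasome gene Psmb10 (0.82, high), and wild-type replicate 4 for Psmb7 (-0.57, low). The cause was not tested.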

How the results depend on the processing

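Of the proteasome genes 0 were called between genotypes under each of the alternatives run. The number of all genes called moved with the processing: 25 as reported, 7 with Agilent's processed signals, 7 with the series table, 3 with a normexp offset of 0, 1 with median centring, 16 with no filter on dim probes, 1 with a replicate block, 418 with array weights, 234 on the 6 arrays numbered 2 to 4, and 3 to 180 when each array was left out in turn, the highest count being without SOD1G93A replicate 1. Same-numbered samples did not deviate together (correlations of -0.16, 0.04, -0.11 and 0.10 for replicates 1 to 4), so the block pairs no samples. Proteasome genes higher in SOD1G93A nerves numbered 12 as reported, 25 with array weights and 29 both without SOD1G93A replicate 1 and on arrays 2 to 4.

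Genotype differences of single genes that changed sign were all short of the threshold. Processed signals and the series table, which are not independent, gave -0.036 for Psmb6 and -0.023 for Psmc2. The mean of all probes gave 0.10 for Psmb5 and -0.022 for Psmc2. Array weights gave 0.016 for Psmd12, 0.094 for Psmb5, 0.0010 for Psmb7, 0.071 for Psmc6 and 0.10 for Psmb8. Cy3 alone gave 0.046 for Psmd13, 0.10 for Psmb5, -0.039 for Psmb6, 0.0097 for Psmc4 and 0.040 for Psmb8. Arrays 2 to 4 gave 0.018 for Psma1, 0.022 for Psma6, 0.046 for Psmd12, 0.10 for Psmb5, 0.064 for Psmb7, 0.035 for Psmc4, 0.13 for Psmc6 and 0.17 for Psmb8. With each array left out in turn, the range was -0.26 to 0.016 for Psmd12, -0.085 to 0.14 for Psmb5, -0.28 to 0.045 for Psmb7, -0.11 to 0.022 for Psmc4, -0.18 to 0.10 for Psmc6, -0.051 to 0.13 for Psmc2, -0.011 to 0.075 for Psmb6 and -0.19 to 0.11 for Psmb8. In the first 5 of these the changed sign came without SOD1G93A replicate 1, in Psmc2 and Psmb6 without other arrays, and in Psmb8 without wild-type replicate 1. Over all named genes and alternatives, 36 genotype values changed sign, 570 kept sign and side of the threshold, and 2 passed it (Maff and Txnl1 with array weights).

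Against the reference, median centring gave 5 proteasome genes higher in nerve in place of 9 and a core median of -0.40 in place of -0.15. With no filter 19981 genes were called in place of 12930. Processed signals and the series table turned Psmb5 to 0.030. The core median stayed below the cap median in each alternative, by 0.11 to 0.45. The cause was not tested.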
